A study of Mus musculus with 24 samples.

Results

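Cytosolic ribosomal protein mRNAs were followed in MEFs, the fibroblasts that grow out of dissociated mouse embryos. Members were chosen by gene symbol, as all genes named Rpl or Rps with a number and at most a short suffix, together with Rplp0, Rplp1, Rplp2 and Rpsa. This gave 90 of the 55487 genes in the gene table. Of these, 77 encode the proteins of the standard ribosome (46 of the large and 31 of the small subunit) and 13 are paralogues or retrocopies, which are related genes or copies made from a spliced RNA. Cells carried either the wild-type (WT) genotype or AMPK KO, which the study describes as a double knockout of prkaa1 and prkaa2, the genes of the catalytic subunits of AMP-activated protein kinase. Cells of each genotype received the vehicle DMSO, the AMPK activator MK-8722 or torin1, an inhibitor of the kinase MTOR, which gave 6 groups of 4 libraries. WT cells were at passages 12 to 15 and AMPK KO cells at passages 16 to 19, with 1 library of each passage in every group of the genotype, so genotype and passage cannot be told apart. Beyond passage, no label says that libraries of a group came from separate cultures, and p-values measure the spread between these libraries alone. Poly(A) RNA of whole cultures was sequenced, so fewer cells and less RNA per cell cannot be told apart.

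Ribosomal proteins bind ribosomal RNA to form the small subunit, which decodes the messenger, and the large subunit, which joins amino acids. Their mRNAs are abundant in growing cells and carry a run of pyrimidines (C and T in the DNA) right at the 5′ end, the terminal oligopyrimidine or TOP motif. Through this motif, LARP1 and the 4E-BP proteins hold back translation when MTOR complex 1 is inactive, while the mRNAs themselves are stored and protected from decay. Torin1 blocks the kinase activity of MTOR, and AMPK restrains MTOR complex 1 when cellular energy is low.

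Each library held between 26900240 and 34192685 estimated counts. Prkaa1 was at 71.3 to 84.5 CPM (the count scaled to a common library size) in WT and at 65.6 to 82.5 in AMPK KO, so the RNA of this targeted gene does not separate the genotypes. Prkaa2 was at 3.22 to 9.01 CPM in WT and 2.34 to 5.71 in AMPK KO. Xist, the RNA that coats the inactive X chromosome, lay at 281 to 511 CPM in WT and at 1 to 3 counts per library in AMPK KO, while the Y-linked genes Ddx3y, Eif2s3y, Kdm5d and Uty were at 0 or 1 count in every WT library and at 1 to 23 counts in AMPK KO. WT and AMPK KO cells thus also differed in markers of chromosomal sex, which cannot be told apart from genotype. The Y-linked genes reached at most 0.692 CPM in AMPK KO, so the sex of the cells is not settled by these values. Summed over a list of 10 fibroblast markers, WT libraries held 11200 to 17300 CPM and AMPK KO libraries 4890 to 6950 CPM, with 8 of the 9 markers that could be tested lower and 1 higher in AMPK KO DMSO. Fap reached at most 3 counts per library. Epithelial, endothelial and blood cell marker lists each summed to at most 8.6 CPM in any library. The part of these differences in the genotype results below was not tested.

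Because the TOP motif sits at the start of the mRNA, start sites from RefSeq on GRCm38.p6 were inspected for 67 members. A run of at least 6 C or T letters, counted on the coding strand from a first base no more than 5 bases before or after the annotated start, was found at 29 of 79 member starts (36.7%) and at 4498 of all 32851 starts (13.7%). Windows of 30 bases run from 10 before the start to 19 after it and are written 5′ to 3′ on the coding strand. They are shown first for Rps6, the substrate of S6 kinase, and for Rpl12, Rpl22l1 and Rps9, with the run in capitals. Rpl12, Rpl22l1 and Rps9 were picked as members that rose with torin1 and hold a run, and Rps9 was called in AMPK KO alone. Rps6 was shown for its role and was not called with torin1 in either genotype. The first line is from the minus strand of chr4:86857348-86857377, the next from the plus strand of chr2:32961702-32961731, then chr3:28805498-28805527 (plus) and chr7:3704031-3704060 (plus).
Rps6: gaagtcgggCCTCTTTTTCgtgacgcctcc
Rpl12: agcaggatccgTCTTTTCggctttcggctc
Rpl22l1: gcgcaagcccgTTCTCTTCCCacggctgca
Rps9: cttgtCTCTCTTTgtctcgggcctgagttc

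The 4 members that fell with torin1 in both genotypes had no run of that length at these starts. Their windows lie at chr17:46782637-46782666 (minus), chr9:66946076-66946105 (plus), chr12:69184048-69184077 (minus) and chr11:101442235-101442264 (plus).
Rpl7l1: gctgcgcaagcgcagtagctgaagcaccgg
Rps27l: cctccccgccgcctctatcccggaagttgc
Rpl36al: ccgtcgctcaggttcagttccgacttccgc
Rpl27: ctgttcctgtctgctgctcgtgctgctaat

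Rpl10a, the called member with the largest rise, also lacked a run of 6 at either of its listed starts. Most member starts lacked one too, and among paralogues and retrocopies a run was found at 3 of 12 starts (25%). No window is given here for Rpl3, Rps20 or Rpl17, so the windows shown do not compare members that rose with members that fell. An annotated start can lie away from the one a cell uses, and annotations differ. For Rpl27 the RefSeq start is base 101442245 of chr11, while the GENCODE annotation used below starts it at base 101442298. A missing run says only that these letters were not in the window.

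In TPM, a unit scaled for library size and transcript length, the 77 standard genes had a median of 1967 and lay between 633 for Rpl29 and 6768 for Rps2. Rplp1, of the stalk that recruits elongation factors, was at 5938. The paralogues and retrocopies had a median of 37.6 TPM, and the lowest members that could be tested were Rps4l at 2.1, Rpl32l at 2.58 and Rpl6l at 11.1 TPM. Levels of 87 members passed the filter on low counts. The other 3, Rpl3l, Rpl39l and Rpl10l, which are known for expression in muscle or testis, had at most 3, 1 and 1 counts per library. A gene at such counts was not detectable at this depth.

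Together the 90 genes held about 6% of all counts, and this share was higher with torin1. It was 6.03, 5.95, 6.30 and 6.29% in WT DMSO (mean 6.14 ± 0.176%, SD, n = 4), and 7.14, 6.88, 7.23 and 7.01% in WT torin1 (7.06 ± 0.15%). In AMPK KO the 4 DMSO libraries were at 6.03, 6.12, 5.89 and 5.77% (mean 5.95 ± 0.157%) and the torin1 libraries at 6.26, 6.61, 6.45 and 6.66% (6.50 ± 0.182%). All torin1 libraries lay above all DMSO libraries of their genotype, at ratios of the means of 1.15 in WT and 1.09 in AMPK KO. With MK-8722 the mean share was 6.05 ± 0.123% in WT and 5.997 ± 0.07% in AMPK KO, and both means lay inside the range of the DMSO libraries. In TPM the share was 17.5% in WT DMSO and 20.2% in WT torin1, and 16.8 and 18.6% in AMPK KO. The largest part of the counts came from Rps2 (0.367% of all counts, mean over libraries), Rpsa (0.211%) and Rplp0 (0.198%).

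**Figure D1:**
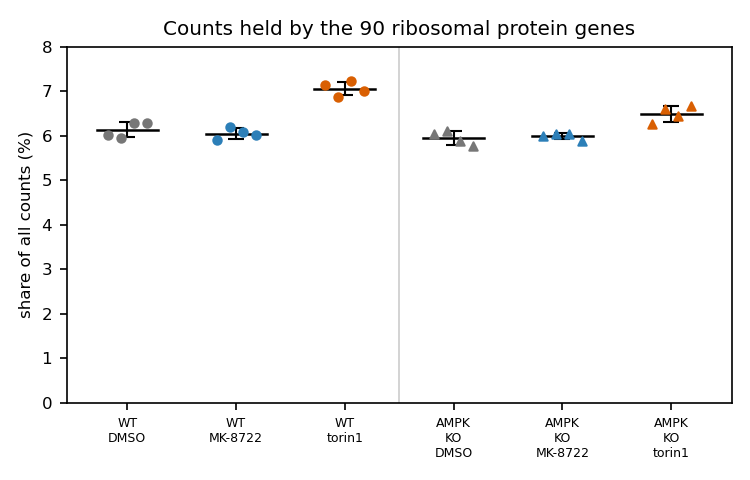
Share of all estimated counts held by the 90 ribosomal protein genes (vertical axis, in percent, from 0) in each library (points), with the mean and SD of 4 libraries per group (black bars). Torin1 libraries sit between 6.26 and 7.23%, above the DMSO libraries of the same genotype, and MK-8722 libraries overlap DMSO.

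A share compares members with all other RNA in the library. Gene by gene, after scaling that sets most genes at no change, torin1 in WT left the standard ribosomal proteins close to their DMSO level. Their median log2 fold change was 0.08, against 0.04 over all 15828 genes tested, and 72 of 77 were within 1.2-fold of DMSO, as were 39.4% of all genes. Called were members with an adjusted p under 0.05 and a change of at least 1.2-fold (edgeR quasi-likelihood test, Benjamini-Hochberg over all genes tested). On that rule 5 members rose, 5.75% of 87 against 26.6% of all genes, and 4 fell, 4.6% against 21.1%. On the adjusted p alone, small rises were common, since 35 members were higher (40.2%, against 32.0% of all genes) and 6 lower (6.9% against 28.1%). Scaling mattered here, because with library size alone 20 members rose and 3 fell, the median of members was 0.18 and that of all genes 0.14. In AMPK KO the median was 0.05 for standard members and 0.06 for all genes, with 7 members higher (8.05%, all genes 25.9%) and 4 lower (4.6%, all genes 17.6%). By the adjusted p alone, 27 were higher (31% against 32.3%) and 8 lower (9.2% against 24.9%). Members were measured more tightly than most genes, with a median standard error of 0.042 on the log2 scale against 0.088.

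**Figure D2:**
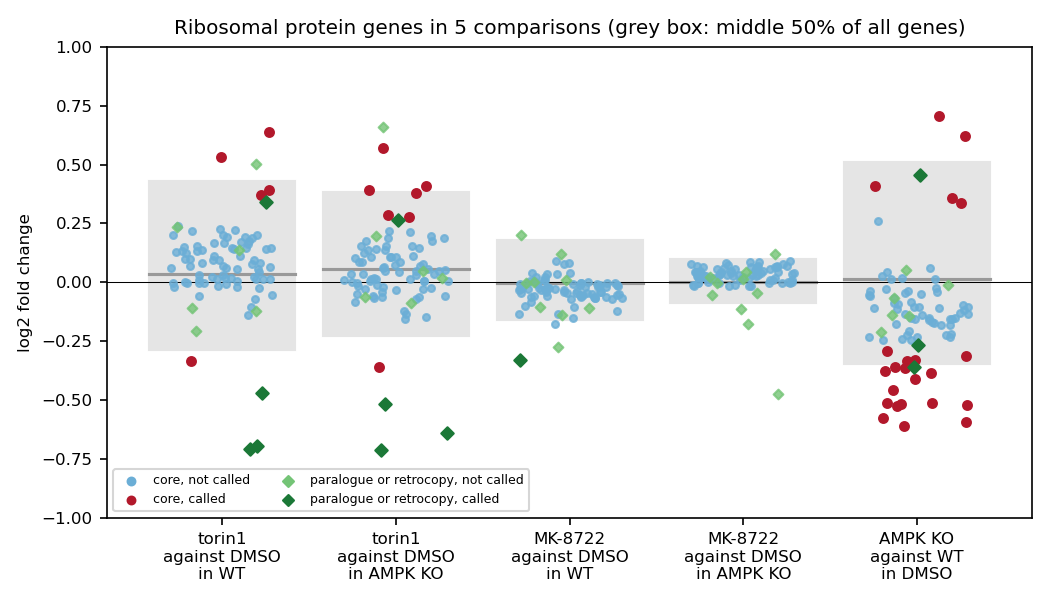
Log2 fold change (vertical axis) of the tested ribosomal protein genes in 5 comparisons, with called members in red and dark green, diamonds for paralogues and retrocopies, and the middle 50% of all genes as a grey box with its median. Rps4l in the genotype comparison (log2 fold change −4.63) is outside the axis. Most members lie inside the box for torin1, and the lowest called points for torin1 include 3 paralogues.

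The 5 members that rose in WT also rose in AMPK KO, and the 4 that fell in WT fell in AMPK KO, so that all 9 WT calls (100%) were shared, as were 81.8% of the 11 AMPK KO calls. Over all genes, 71.1% of WT calls and 77.9% of AMPK KO calls were shared with the same direction. The member count rests in part on Rpl22l1, whose call in AMPK KO lay near the fold limit and was lost under several settings given with its values. Across the 87 members the log2 fold changes in the genotypes, which share no libraries, had a Pearson r of 0.92 and a Spearman rho of 0.79, against a Pearson r of 0.72 over all genes tested. These are correlations across genes, which are not independent replicates.

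Rpl10a, a large subunit protein near the exit site for transfer RNA (GRCm38 chr17:28328471-28331033, plus strand), rose most. In WT it was at 780.0, 746, 746 and 799 CPM with DMSO and at 1213, 1161, 1223 and 1178 CPM with torin1. In AMPK KO the values were 676, 677, 621 and 658 with DMSO and 991, 952, 953 and 1011 with torin1. No torin1 library overlapped a DMSO library in either genotype, and the log2 fold changes were 0.64 (SE 0.038, adjusted p = 1.1e-12) and 0.57 (SE 0.038, adjusted p = 1.3e-11). Rpl3, which lies close to the peptidyl transferase centre (chr15:80077791-80091868, minus), went from 1174, 1129, 1197 and 1227 CPM to 1741, 1672, 1719 and 1697 CPM in WT. Its DMSO values of 1112, 1106, 1040.0 and 1047 CPM in AMPK KO became 1342, 1415, 1427 and 1469 CPM. The groups again did not overlap, at 0.53 in WT (SE 0.035, adjusted p = 6.7e-12) and 0.39 in AMPK KO (SE 0.035, adjusted p = 1.6e-09).

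Rpl12, a protein of the stalk base (chr2:32961559-32965345, plus), and Rps20, a small subunit protein (chr4:3831334-3835665, minus), rose by similar amounts. Rpl12 had 1092, 1071, 1112 and 1148 CPM with DMSO in WT and 1474, 1439, 1434 and 1465 CPM with torin1, a log2 fold change of 0.39 (SE 0.038, adjusted p = 4.2e-09). Rps20 had 616, 601, 621 and 684 CPM with DMSO and 812, 787, 812 and 851 CPM with torin1, a change of 0.37 (SE 0.038, adjusted p = 1.3e-08). For both genes each WT torin1 library exceeded each WT DMSO library. In AMPK KO the changes were 0.38 (SE 0.038, adjusted p = 1e-08) for Rpl12 and 0.41 (SE 0.038, adjusted p = 3.6e-09) for Rps20.

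Rpl22l1, the paralogue of Rpl22 (chr3:28805436-28807424, plus), was expressed at a much lower level. It went from 42.8, 39.6, 44.5 and 45.6 CPM to 55.0, 55.1, 52.9 and 55.5 CPM in WT, without overlap, a log2 fold change of 0.34 (SE 0.055, adjusted p = 8.9e-06). In AMPK KO its change of 0.27 (SE 0.055, adjusted p = 0.00023) lay just above the 1.2-fold limit and was no longer called in 22 of the 24 fits that left out 1 library, all but those without AMPK KO DMSO replicate 2 or AMPK KO torin1 replicate 3 (0.18 to 0.28 over the 24). It was also under the limit by DESeq2 (0.24), with DESeq2 size factors (0.24), TMM on non-members (0.22), no filter on low counts (0.24), the effective length offset (0.25) and pseudogene counts added (0.26). Rpl22 itself, at 266, 259.6, 297 and 287 CPM with DMSO in WT, had a change of 0.19 (adjusted p = 0.00029), below the fold limit. In AMPK KO alone, Rpl17 at 0.29 (SE 0.053, adjusted p = 7.1e-05) and Rps9 at 0.28 (SE 0.036, adjusted p = 6.4e-07) were also called. Their WT values of 0.19 and 0.20 had adjusted p of 0.0033 and 4.4e-05, and for neither was the difference between genotypes past the threshold (adjusted p = 0.49 and 0.39). Rpl17 was not called in 12 of the 24 fits without 1 library.

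The members that fell were 3 paralogues and the standard member Rpl27. Rpl7l1, a relative of Rpl7 that takes part in assembly of the large subunit (chr17:46773907-46782672, minus), had 202, 200.1, 208 and 200.4 CPM with DMSO in WT and 127, 125, 122 and 123 CPM with torin1. In AMPK KO it went from 199.8, 201, 187 and 187 CPM to 119.9, 129.6, 119 and 128 CPM. The torin1 libraries of both genotypes were below every DMSO library, at log2 fold changes of −0.71 (SE 0.039, adjusted p = 4.6e-13) and −0.64 (SE 0.039, adjusted p = 4.6e-12). Its namesake Rpl7 was at 0.13 (adjusted p = 0.0091) and 0.11 (adjusted p = 0.03).

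Rps27l, a paralogue of Rps27 that is known as a p53 target (chr9:66946086-66949516, plus), fell by a like amount. In WT, DMSO libraries had 68.6, 67.7, 74.2 and 72.7 CPM and torin1 libraries 41.0, 44.4, 43.4 and 45.8 CPM. The AMPK KO values were 57.1, 57.6, 52.4 and 53.6 CPM with DMSO and 31.0, 37.3, 31.8 and 34.4 CPM with torin1. There was no overlap, and the changes were −0.70 (SE 0.052, adjusted p = 4.8e-11) in WT and −0.71 (SE 0.052, adjusted p = 6.8e-11) in AMPK KO, while Rps27 was at 0.20 and 0.15.

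Rpl36al, a close relative of Rpl36a (chr12:69182731-69184083, minus), had 121, 120.4, 133 and 128 CPM with DMSO and 82.9, 85.4, 91.7 and 103 CPM with torin1 in WT, a change of −0.47 (SE 0.055, adjusted p = 8.6e-08). In AMPK KO it was −0.52 (SE 0.055, adjusted p = 2.6e-08), and Rpl36a itself was at 0.17 and 0.19. Rpl27, a large subunit protein (chr11:101442298-101445529, plus), had 434, 424, 462 and 441 CPM with DMSO and 346, 342, 354 and 355 CPM with torin1 in WT. Its change was −0.33 in WT (SE 0.043, adjusted p = 3.5e-07) and −0.36 in AMPK KO (SE 0.043, adjusted p = 1.4e-07), and the groups did not overlap in either genotype for both genes. Of the other tested paralogues and retrocopies, Rps4l, Rpl32l, Rpl6l, Rps12l1, Rpl37rt and Rps27rt were not called with torin1. In WT, Rps4l was called with passage as a block (0.54, adjusted p = 0.036) and Rps27rt with GC and length trends removed (0.42, adjusted p = 0.026) and without WT DMSO replicate 3 (0.43).

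**Figure D3:**
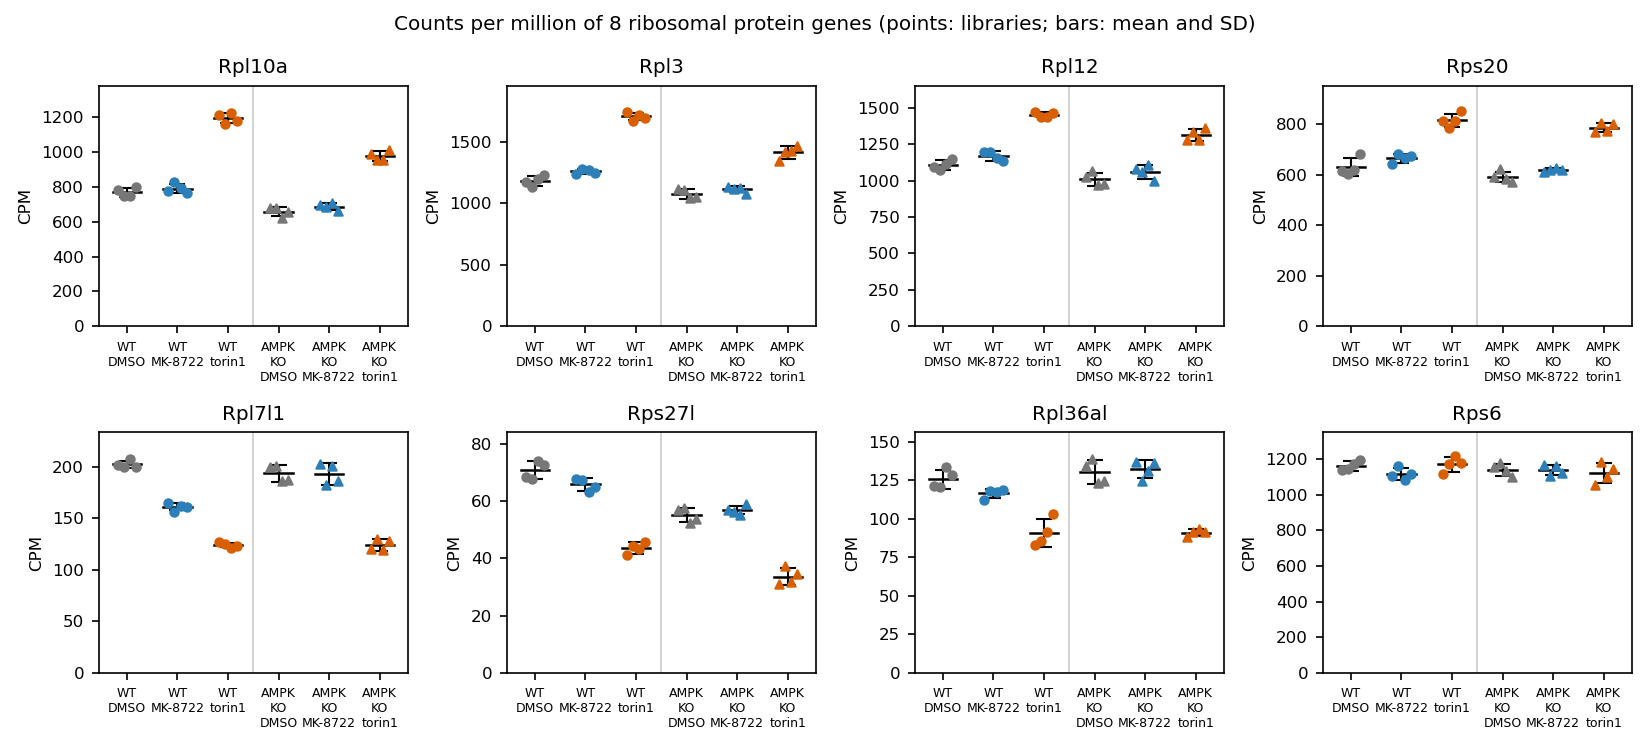
CPM (vertical axes, from 0) of 8 ribosomal protein genes in each library (points), with the mean and SD of 4 libraries per group (black bars), for WT (circles) and AMPK KO (triangles). Rpl10a, Rpl3, Rpl12 and Rps20 are higher and Rpl7l1, Rps27l and Rpl36al lower in every torin1 library than in any DMSO library of the genotype, while Rps6 overlaps between groups.

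Members fixed for their role outside this pattern moved little with torin1. Rps6, which S6 kinase phosphorylates downstream of MTOR complex 1, had 1140.0, 1143, 1174 and 1195 CPM with DMSO and 1120.0, 1172, 1220.0 and 1178 CPM with torin1 in WT. The groups overlapped, and the log2 fold change was 0.01 in WT (adjusted p = 0.81) and −0.03 in AMPK KO (adjusted p = 0.59). Rpl11, which with Rpl5 binds the p53 ubiquitin ligase MDM2, was at 0.00 (adjusted p = 1) and −0.01 (adjusted p = 0.82), and Rpl5 at 0.02 and 0.11. The stalk proteins Rplp0, Rplp1 and Rplp2 had WT changes of 0.13, 0.06 and 0.03. In AMPK KO they were at 0.01, −0.12 and −0.06. Rps27a, made as a fusion with ubiquitin, was at −0.00 and −0.07, and Rpl41, the shortest ribosomal protein, at −0.02 and −0.06. Rpsa, Rps3 and Rps24 had 0.11, 0.09 and 0.06 in WT, and none of these genes was called in either genotype.

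Several of the called genes share their place with a gene on the opposite strand, which are CT025652.2 at Rpl10a, Syngr1 at Rpl3, Lrsam1 at Rpl12, Gm33051 at Rpl22l1 and Gm26904 at Rpl7l1. Gm49383 overlaps Rpl36al on the same strand. Whether counting used strand is not given in the sources used here, so reads of such pairs may not be told apart. Rps20 overlaps the snoRNA gene Gm24016 on its own strand, and Rps27l and Rpl27 overlap no other gene in the annotation.

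MK-8722 left the mRNAs of standard ribosomal proteins within 1.2-fold of DMSO in all 77 cases in WT and in all 77 in AMPK KO, as against 66.9 and 82.4% of all genes. The 95% interval of the change lay inside 1.2-fold for 75 members in WT and for 77 in AMPK KO, against 30.5 and 44.2% of all genes. In WT, 0 members rose and 1 fell (1.15%), against 10.0% of all genes higher and 5.66% lower, by edgeR and by DESeq2 alike. With an unadjusted p under 0.05 there were 12 of the 87, against 37.8% of all genes. The median was −0.03 for members and −0.00 for all genes, with 63 of the 77 standard members below 0. The member that fell was Rpl7l1, at 165, 157, 162 and 162 CPM with MK-8722, below the 4 DMSO libraries at 200.1 to 208 CPM and above the 4 torin1 libraries at 122 to 127 CPM. Its log2 fold change was −0.33 (SE 0.039, adjusted p = 8.7e-07). Members past the adjusted p but under the fold limit included Rpl27 at −0.18 (adjusted p = 0.0028), Rpl7a at −0.15 (adjusted p = 0.013), Rpl11 at −0.13 (adjusted p = 0.0086) and Rpl22l1 at 0.20 (adjusted p = 0.0083).

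In AMPK KO, MK-8722 gave 0 calls among members in either direction by edgeR and by DESeq2, where 0.866% of all genes were higher and 0.695% lower. At an unadjusted p under 0.05 there were 2, Rps18 and Rpl22l1, against 16.5% of all genes. Rpl7l1 stood at 203, 183, 201 and 186 CPM against 199.8, 201, 187 and 187 CPM with DMSO, fully overlapping, with a log2 fold change of −0.00 (SE 0.039, adjusted p = 0.99).

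The difference between genotypes in the response was tested directly, as the AMPK KO change minus the WT change. For torin1, 0 members were called in either direction, against 4.15% of all genes higher and 2.92% lower, and 3 had an unadjusted p under 0.05, as did 23.9% of all genes. The 3 were Rpl3 at −0.14 (adjusted p = 0.08), Rplp1 at −0.18 (adjusted p = 0.095) and Rpl13a at −0.12 (adjusted p = 0.13), and DESeq2 called 0. Rplp1 was called in 4 of 24 fits that each left out 1 library, namely WT torin1 replicate 3, AMPK KO DMSO replicate 3, AMPK KO DMSO replicate 4 or AMPK KO torin1 replicate 2. For MK-8722, Rpl7l1 alone was called, at 0.33 (SE 0.055, adjusted p = 0.00022), so 1.15% of members were higher against 5.12% of all genes, and 0 members were lower against 7.66%. With an offset for the effective length of the transcripts the Rpl7l1 difference was 0.24 (adjusted p = 0.062) and no longer called. Rpl27 had a difference of 0.21 (SE 0.06, adjusted p = 0.018), under the fold limit.

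Between the DMSO groups of the genotypes, members differed more than with either drug. In AMPK KO DMSO against WT DMSO, 6 members were higher (6.9%, all genes 30.9%) and 21 lower (24.1%, all genes 26.0%). By the adjusted p alone, 7 were higher (8.05% against 36.2%) and 56 lower (64.4% against 33.3%). The median was −0.15 for members and 0.02 for all genes, and 65 of the 77 standard members lay below 0. These values rest on the scaling, since with library size alone the medians were −0.01 and 0.16, with 7 members higher and 11 lower. With a smooth trend of transcript length removed they were −0.33 and −0.16, with 3 higher and 56 lower. The share of all genes called was not counted under either setting. Since the median of all genes moved too, these counts do not separate members from a shift of all genes. A change of scaling shifts all genes nearly alike, so it could not alter the gap between these medians. With the length trend removed, the median of members was also below that of all genes, and the cause of the gap was not tested. As a share of all counts, members held 5.95% in AMPK KO DMSO and 6.14% in WT DMSO, a ratio of 0.969, and the libraries overlapped. The lower fibroblast markers and the Xist difference given above accompany this comparison.

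Rps19, the small subunit gene most often mutated in Diamond-Blackfan anaemia (chr7:24884371-24889806, plus), was the member that was most above WT. It had 366, 354, 363 and 384 CPM in WT and 618, 618, 584 and 573 CPM in AMPK KO, at 0.71 on the log2 scale (SE 0.037, adjusted p = 3.5e-14). Rps16, another small subunit gene on the same chromosome (chr7:28350652-28353155, plus), had 801, 783, 811 and 821 CPM in WT and 1278, 1275, 1168 and 1226 CPM in AMPK KO, which made 0.62 (SE 0.04, adjusted p = 1.6e-12). Neither gene overlapped between the genotypes, and over all treatments WT libraries were at most at 391 CPM for Rps19 and AMPK KO libraries at least at 570.4 CPM. Rpl37rt, a retrocopy, was at 0.46 (SE 0.1, adjusted p = 0.00039) and its parent Rpl37 at 0.36 (SE 0.034, adjusted p = 1.7e-09). The Rpl37 call was lost when a smooth trend with transcript length was removed (0.19, adjusted p = 0.0013) and when trends with GC content and length were removed (0.04, adjusted p = 0.56). Reads of such a pair may be divided between both genes by the counting, so the retrocopy's value is uncertain. Rpl8 at 0.41 and Rpl24 at 0.34 were also higher.

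Lower in AMPK KO were Rpl17 at −0.61 (SE 0.054, adjusted p = 4.1e-10), Rps25 at −0.59 (SE 0.063, adjusted p = 1.2e-08) and Rpl14 at −0.58 (SE 0.037, adjusted p = 1.4e-12). Rpl14, of the large subunit (chr9:120571444-120574654, plus), had 734, 719, 785 and 795 CPM in WT and 513, 527, 498 and 495 CPM in AMPK KO. Rps25, of the small subunit (chr9:44407139-44410427, plus), overlaps Ccdc84 and Trappc4 on the opposite strand. The 3 genes with the largest counts were also lower. Rps2 had 4300.0, 4374, 4344 and 4199 CPM in WT and 3093, 3165, 2938 and 2884 CPM in AMPK KO, and Rpsa, also known as the laminin receptor precursor, had 2434, 2492, 2394 and 2495 CPM and 1733, 1786, 1635 and 1667 CPM. Neither overlapped, and the changes were −0.51 (SE 0.05, adjusted p = 2.5e-09) and −0.53 (SE 0.046, adjusted p = 3.6e-10). Rplp0, often used as a reference gene in RT-qPCR, was at 2255, 2268, 2292 and 2390 CPM in WT and 1653, 1689, 1561 and 1546 CPM in AMPK KO, a change of −0.51 (SE 0.048, adjusted p = 1.3e-09). Within the stalk, Rplp1 was at −0.37 (adjusted p = 2.9e-07), and Rplp2 at −0.14 (adjusted p = 0.0079) was under the fold limit. Other called members were Rpl4 at −0.52, Rps24 at −0.52, Rpl41 at −0.38, Rps27l at −0.36, Rpl5 at −0.33, Rpl10 at −0.29 and Rpl22l1 at −0.27. With library size alone as the scaling, 6 of these genes fell short of the fold limit, which were Rplp1 (−0.23), Rpl41 (−0.24), Rps27l (−0.22), Rpl5 (−0.19), Rpl10 (−0.15) and Rpl22l1 (−0.13). Rpl22l1 was also under it with the effective length offset (−0.25), with GC and length trends removed (−0.12), and without WT DMSO replicate 4, AMPK KO DMSO replicate 4, AMPK KO torin1 replicate 1 or AMPK KO torin1 replicate 3 (−0.26 to −0.24). Rpl11, Rps6 and Rpl27 were at −0.07, −0.03 and 0.03.

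The widest gap was in Rps4l, a retrocopy of the X-linked Rps4x (chr6:148354656-148355598, plus) that lies across from Tmtc1. Its WT DMSO libraries held 40 to 81 counts and its AMPK KO DMSO libraries 1 to 4, which summed to 214 and 9 counts. Scaled by the TMM library sizes of the groups, the ratio of WT to AMPK KO was 26.3 (95% interval 13.6 to 58.3 for counting error alone). The fitted log2 fold change was −4.63 (SE 0.49, adjusted p = 9.8e-09). Rps4x was at −0.15 (adjusted p = 0.0025). Of the other X-linked members, Rpl10 was lower, and Rpl36a at −0.04 and Rpl39 at −0.16 were not called.

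**Figure D4:**
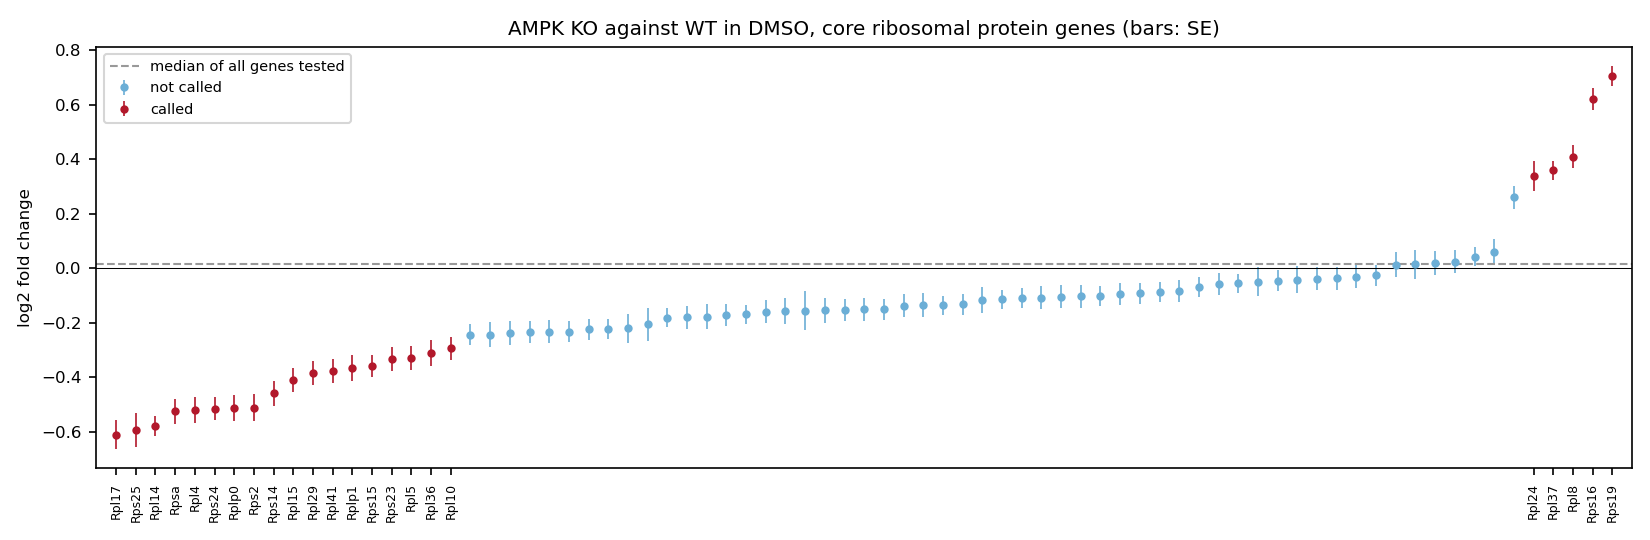
Log2 fold change of AMPK KO against WT in DMSO (vertical axis) for the 77 standard ribosomal protein genes in rising order, with the SE as bars, called genes in red and named on the axis and the median of all genes tested as a dashed line. The values run from −0.61 for Rpl17 to 0.71 for Rps19, and 65 of 77 lie below 0.

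Within genes, the deposited estimates also divide counts among transcripts. Shares of the gene count were compared for 168 transcripts of 67 members. Each held between 5 and 95% as a mean over all libraries, in a gene with at least 100 counts in every library. Shares did not overlap between torin1 and DMSO for 38 of these (22.6%) in WT and 48 (28.6%) in AMPK KO, while over all genes 10.5 and 10.2% of transcripts were separated. For MK-8722 the numbers were 10 (5.95%, all genes 4.48%) in WT and 6 (3.57%, all genes 3.48%) in AMPK KO, and for the genotypes 42 (25%, all genes 11%). Deeply counted genes give steadier shares, and transcripts of 1 gene are not independent of each other. The transcripts named next were chosen after their values were seen, and fits of 56835 transcripts by edgeR do not include the uncertainty of dividing reads among transcripts.

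Rpl27, which fell as a gene, has 2 main transcripts. Rpl27-201 is fully spliced, and Rpl27-202 starts further downstream and covers 266 bases that are intron in Rpl27-201. Its first 30 bases on GRCm38 (GENCODE vM21 model, chr11:101442446-101442475, plus) show in capitals the bases that Rpl27-201 splices out.
Rpl27-202: gcctgctgtcgGTGAGTAAAGGCCTGGAGA

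Rpl27-202 had 143, 138, 147 and 144 CPM with DMSO in WT, 89.3, 101.5, 94.6 and 102.2 CPM with MK-8722 and 59.6, 60.8, 59.0 and 60.2 CPM with torin1. The 3 groups were fully apart, in that order. In AMPK KO the values were 169, 183, 155 and 163 CPM with DMSO, 167, 169, 178 and 157 CPM with MK-8722 and 70.5, 82.9, 70.8 and 76.9 CPM with torin1, so that torin1 was apart and MK-8722 overlapped DMSO. The torin1 changes were −1.26 in WT (SE 0.06, adjusted p = 4.8e-12) and −1.15 in AMPK KO (SE 0.06, adjusted p = 2.7e-11). For MK-8722 they were −0.56 in WT (SE 0.059, adjusted p = 4e-06) and 0.00 in AMPK KO (adjusted p = 1), a difference between genotypes of 0.56 (SE 0.084, adjusted p = 0.00082). The spliced Rpl27-201 was at 0.04 (adjusted p = 0.69), −0.07 (adjusted p = 0.53) and −0.04 (adjusted p = 0.88) for torin1 in WT, torin1 in AMPK KO and MK-8722 in WT.

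Transcripts that cover an intron of another transcript could be followed for 19 members, Rpl27 among them. This class was added after values were seen. With torin1 the median change of its share was −0.92 percentage points for members and −0.58 for all genes in WT, and −0.89 and −0.4 in AMPK KO. The share of the gene count in such transcripts was lower without overlap for 5 members with torin1 in WT (26.3%, all 1907 genes 9.28%). It was so for 6 in AMPK KO (31.6%, all genes 8.70%) and for 3 with MK-8722 in WT (15.8%, all genes 3.51%). The 5 were Rpl10a, Rpl27, Rpl28, Rpl41 and Rps27a, joined in AMPK KO by Rpl3, and the 3 with MK-8722 were Rpl10a, Rpl27 and Rpl28. In the other direction, 1 member was higher without overlap with torin1 in each genotype (5.26%, all genes 5.45% in WT and 5.19% in AMPK KO) and 0 with MK-8722 in WT (all genes 2.52%). It was Rps25 in both genotypes, whose intron-covering share went from 82.42, 82.68, 81.43 and 82.3% to 84.63, 84.59, 83.84 and 84.96% in WT, and from 79.91, 81.79, 81.27 and 81.27% to 84.87, 83.55, 83.37 and 83.29% in AMPK KO. For Rpl10a, the intron-covering share was 21.4, 23.2, 20.5 and 21.99% with DMSO in WT, 15.8, 18.8, 16.2 and 15.6% with MK-8722 and 11.8, 13.6, 10.5 and 12.8% with torin1. In AMPK KO it averaged 19.9 ± 0.64% with DMSO, 21.5 ± 0.68% with MK-8722 and 12.2 ± 0.99% with torin1 (SD, n = 4). Rpl10a as a gene rose with torin1, unlike Rpl27. Rpl30, with 61.4 ± 2.1% in WT DMSO and 60.9 ± 2% in WT torin1, is a member whose intron-covering share overlapped.

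In Rpl22, minor transcript models with a later annotated 3′ end rose with torin1, while the main transcript changed little. Rpl22-204 and Rpl22-208 end 1591 and 1590 bases beyond Rpl22-201 in the annotation. Whether they also differ from Rpl22-201 in other parts is not given here, so a change of the 3′ end itself was not tested. With torin1, Rpl22-208 went from 15.2, 14.5, 14.9 and 12.5 CPM to 33.4, 35.1, 39.7 and 31.3 CPM in WT, a log2 fold change of 1.29 (SE 0.097, adjusted p = 3e-09), and it changed by 0.999 in AMPK KO (SE 0.095, adjusted p = 1.3e-07). Rpl22-204 was at 1.16 and 0.96. The main transcript Rpl22-201, at 201, 198, 229.5 and 246 CPM with DMSO in WT, was at 0.10 (adjusted p = 0.45) and −0.04 (adjusted p = 0.82). In its relative Rpl22l1, the transcript Rpl22l1-204, which is annotated as a target of nonsense-mediated decay, made up 3.02, 2.79, 2.23 and 3.69% of the count with DMSO in WT and 8.74, 6.89, 11.1 and 11.5% with torin1. In AMPK KO its mean share went from 3.46 ± 0.36% to 8.16 ± 1.2%. This transcript adds 67 bases at the front of an internal exon, shown in capitals after the end of the exon before it (chr3:28806670-28806736, plus, first 20 of the added bases).
Rpl22l1-204: tggaaattttGGTACCTTCCCTAGTGACCA

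**Figure D5:**
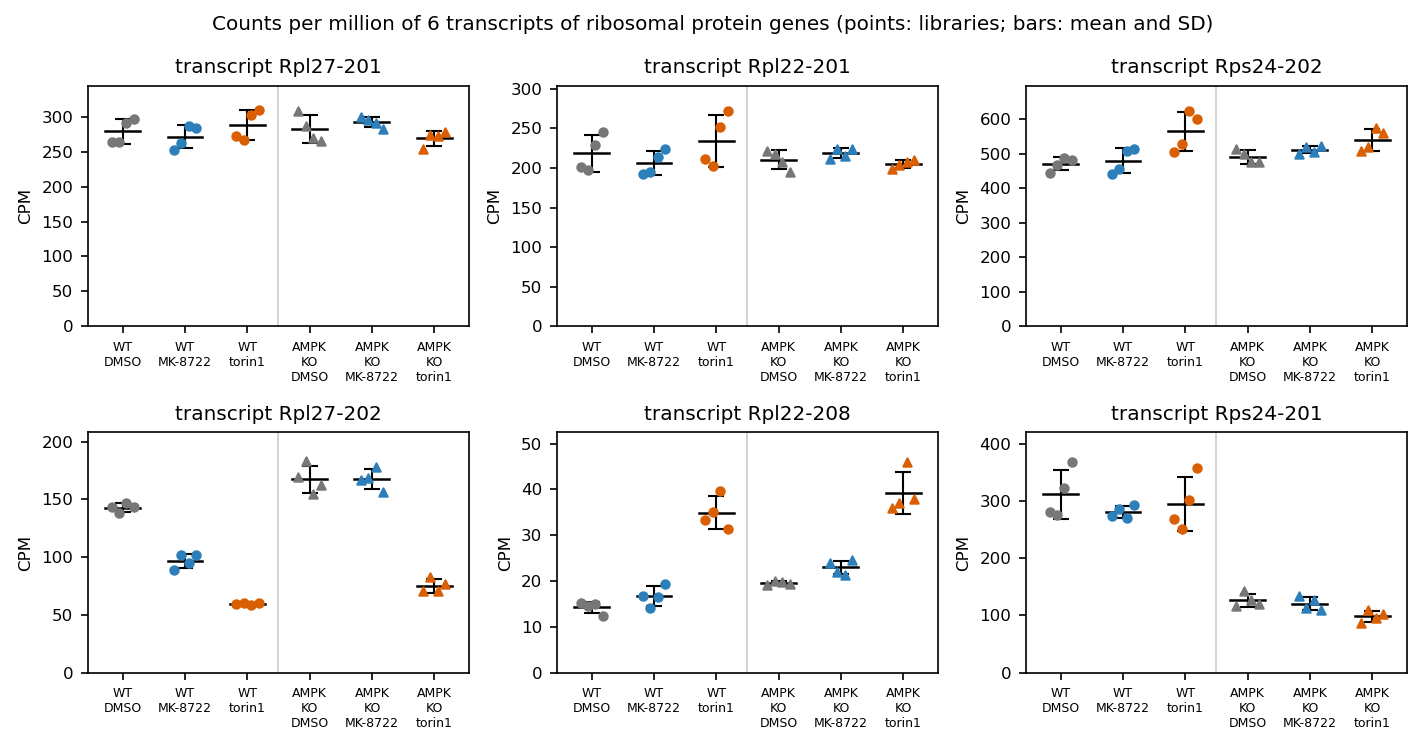
CPM (vertical axes, from 0) of 6 transcripts of Rpl27, Rpl22 and Rps24 in each library (points), with the mean and SD of 4 libraries per group (black bars). Rpl27-202 is lower and Rpl22-208 higher in every torin1 library than in any DMSO library of the genotype, and Rps24-201 is lower in every AMPK KO library than in any WT library, while the Rps24-202 values of the genotypes overlap.

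Between the genotypes, the lower levels of Rplp0 and Rps24 lay mostly in 1 transcript each. Rplp0-204 had 551, 605, 618 and 708 CPM in WT DMSO and 196, 213, 189 and 209 CPM in AMPK KO DMSO, a log2 fold change of −1.62 (SE 0.098, adjusted p = 1.9e-11), whereas Rplp0-201 was at −0.18 (SE 0.05, adjusted p = 0.0083). Rplp0-204 is a shorter model that ends before the last exon and carries 22 extra bases at the front of an exon (capitals, chr5:115560719-115560740, plus).
Rplp0-204: agatcatcTTTTTCCTGGCTTCCTTCATAG

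Rps24-201 had 281, 275, 323 and 367 CPM in WT DMSO and 117, 142, 127 and 121 CPM in AMPK KO DMSO, at −1.30 (SE 0.11, adjusted p = 3.2e-09), while Rps24-202 was at 0.06 (SE 0.063, adjusted p = 0.55). Rps24-201 starts at 24490681 and Rps24-202 at 24490718 on chr14, and they also differ at their ends. Rps19-205, a nonsense-mediated decay model, rose with torin1 by 0.61 in WT (SE 0.12, adjusted p = 0.00066) and 0.50 in AMPK KO (SE 0.12, adjusted p = 0.0046), with Rps19 as a gene at 0.04 and −0.02.

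Around the ribosomal proteins, lists of related genes gave a mixed picture for torin1. Each count is to be read beside the shares of all genes called, which were 26.6% higher and 21.1% lower in WT and 25.9% higher and 17.6% lower in AMPK KO. Of 15 other TOP mRNAs, 3 rose and 1 fell in each genotype, with list medians of 0.17 and 0.18. The translation factors Eif4b (0.78 in WT, SE 0.045, adjusted p = 9.1e-13) and Eef2 (0.40) rose, as did Hnrnpa1 (0.38), and Eef1d fell (−0.31). Of 8 dedicated chaperones, which carry new ribosomal proteins to the subunits, 4 fell and 1 rose in each genotype. Bccip (chaperone of Rpl23), Ltv1 (small subunit), Grwd1 (Rpl3) and Heatr3 (Rpl5) were at −0.71, −0.70, −0.66 and −0.60 in WT, and Pdcd2 (Rps2) at 0.74. Among 12 regulators, 9 fell and 1 rose in WT, and 5 fell and 2 rose in AMPK KO. They include the translation repressor Eif4ebp1 (−1.27 in WT), the cap-binding factor Eif4e (−0.92) and Larp1 (−0.63), which fell in both genotypes. Mitochondrial ribosomal proteins, which act in a separate ribosome, had 35 of 78 lower and 6 higher in WT (all genes 21.1% and 26.6%) and 35 lower and 3 higher in AMPK KO (all genes 17.6% and 25.9%), with medians of −0.24 and −0.25 beside 0.08 and 0.05 for the cytosolic members. Fau and Rack1, ribosomal proteins that the name rule leaves out, were not called with either drug in either genotype.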

How the data were processed

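Poly(A) RNA of 24 libraries was sequenced as paired reads. Per the study's methods, the authors ran nf-core/rnaseq with STAR and Salmon on GRCm38 and deposited estimated counts for each gene. The deposited transcript tables hold estimated counts, effective lengths and TPM (scaled for transcript length and depth) for each library. The read layout used in counting (strand setting) is not given in the sources used here.

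Gene estimated counts were rounded, and 15828 genes passed edgeR's filter, holding 99.96% of all counts. One model with 6 group means was fitted over the 24 libraries (edgeR 4.0.16, quasi-likelihood test, TMM scaling, Benjamini-Hochberg adjustment over all genes tested, R 4.3.3), and calls needed both an adjusted p under 0.05 and at least a 1.2-fold change. Scaling factors were 0.926 to 1.1, and no replicate pair of a group matched within sampling noise (chi-square per degree of freedom 3.47 to 51.4), so none was merged as a repeat deposit of 1 library. DESeq2 1.42.0 was an alternative, as were other scalings, filters, thresholds, length and GC trends, pseudogene counts, blocks and leaving out each library. The code was tested on simulated data. CPM values use TMM-scaled library sizes.

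Members and gene lists were chosen with earlier results of these data known. Named were, for each comparison, up to 3 called members per direction, ranked by size of change, at a mean of at least 5 CPM, members fixed by role, paralogue pairs, the 3 highest and 3 lowest by TPM and those that failed the filter. Results of a few genes are not reported here. Other named members, and all named transcripts with their fits, were chosen after their values were seen. The class of intron-covering transcripts was also added after values were seen. Gene positions and transcripts are from GENCODE vM21 (GRCm38), which matched all 90 members, and start windows from RefSeq (GRCm38.p6), which held 67 members. The interval of the Rps4l ratio covers counting error only. Intervals of log2 fold changes come from the standard errors of the edgeR fit and include the spread between libraries.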

Additional observations from a re-analysis of the deposited data

Results flagged for a closer look

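In 225 groups of 4 libraries examined, 9 held 1 library far from the other 3 by Dixon's criterion, where chance gives about 1 in 20 groups, or 11. In AMPK KO with MK-8722, replicate 4 stood apart for 3 genes and 1 transcript. Rpl10 was at 650.7 CPM there and at 690.7 to 694.1 in the others, Rplp1 at 1096 against 1185 to 1196 CPM, and Rpl17 at 566.8 against 518.6 to 525.1 CPM. The Rpl22l1-204 share of the gene count was 5.23% in that library and 2.65 to 3.04% in the others. None of these genes was called for MK-8722 in AMPK KO.

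Rpl36al in WT MK-8722 replicate 1 was at 112.3 CPM, with the others at 117.7 to 118.5 CPM. Rps4l in WT torin1 replicate 4 was at 3.134 CPM, with the others at 2.393 to 2.452 CPM. The share of Rps19-205 was 24.65% in AMPK KO DMSO replicate 1 against 25.34 to 25.36% in the others, and 32.02% in AMPK KO torin1 replicate 2 against 37.83 to 38.35%. The share of Rps24-201 was 26.38% in WT MK-8722 replicate 3 and 27.82 to 28.03% in the others.

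The response to MK-8722 differed between genotypes for Rpl7l1, by 0.326 on the log2 scale (edgeR adjusted p = 0.00022), and for the transcript Rpl27-202, by 0.562 (edgeR adjusted p = 0.00082). Both were lower with MK-8722 in all 4 WT libraries than in any WT DMSO library, and overlapped with DMSO in AMPK KO.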

How the results depend on the processing

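For torin1 in WT, 9 members were called, against 23 with library size alone (median 0.182), 41 by adjusted p alone, 3 at 1.5-fold, 16 with a smooth length trend removed and 16 with a GC and length trend removed, the last chosen after seeing the data. For torin1 in AMPK KO, 11 were called, against 35 by adjusted p alone and 2 at 1.5-fold, and the median of 0.046 became 0.105 with library size alone, -0.004 with TMM on non-members, 0.101 with the length trend and 0.115 with GC and length. For MK-8722 in WT the counts were 6 by adjusted p alone and 0 at 1.5-fold. Between genotypes, 27 were called, against 63 by adjusted p alone, 5 at 1.5-fold, 59 with the length trend (median -0.333), 58 with GC and length (median -0.314), 18 with library size alone (median -0.012) and 36 with no filter. The genotype difference in the torin1 response had a median of -0.102 with TMM on non-members. That in the MK-8722 response had 2 calls by adjusted p alone, 0 at 1.5-fold and 0 with the effective length offset. Beyond thresholds and scalings, the cause was not tested. Shares of all genes called are given above for the main rule and, for torin1 and between genotypes, for adjusted p alone. No such share was counted for the other settings, so their counts do not separate members from a shift of all genes. The median of all genes went from 0.036 to 0.136 for torin1 in WT with library size alone. Between genotypes it went from 0.015 to -0.164 with the length trend. Without 1 library each, the called counts ran from 9 to 10 and 8 to 11 for torin1 in WT and AMPK KO, 27 to 37 between genotypes and 0 to 1 for the torin1 difference, and the medians from 0.048 to 0.121, from -0.025 (without AMPK KO torin1 replicate 2) to 0.062, from -0.219 to -0.139 and from -0.114 to -0.007. Of 10062 gene and setting values, 98.2% kept their side of the threshold, 83 lost a call and 0 reversed, the rest gaining one. Most of these values come from the fits without 1 library, and many belong to results not called in the main fit. The percentage therefore says little about how firm the calls are. Passage blocks gave 10 torin1 calls in WT and 11 in AMPK KO, and replicate number blocks 9, 11 and, between genotypes, 27, so the block changed no count by over 1.5 times. Libraries of the same replicate number had a median correlation of deviations of 0.024 (-0.2 to 0.25), and these numbers were not taken as pairs. Those of the same passage had 0.13 (-0.011 to 0.37), against -0.036 (-0.25 to 0.075) for other passages of the genotype. Of 24 libraries, 19 were closest to their own passage, so libraries of a passage were alike to some degree. The main fit does not use this likeness, and its p-values and standard errors are those of unpaired groups.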
